A study of Mus musculus with 12 samples.

Results

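The resting gene expression of bone marrow derived macrophages (BMDM) was described from the 3 untreated arrays of a series of 12. The members were chosen by their labels, which give no treatment, and they served as the controls of 3 treated groups of 3 arrays each. All 12 arrays hold RNA of BMDM from Balb/c mice. The marrow came from the femurs and was grown with macrophage colony stimulating factor (M-CSF) at 20 ng/ml, and every group was then kept overnight without M-CSF before a last incubation of 1 h. In that hour the treated groups received the antimicrobial peptide human β-defensin 3 (hBD3), bacterial lipopolysaccharide (LPS) at 50 ng/ml, or both. The labels give hBD3 as 5 mg/ml and the methods as 5 μg/ml, and the labels give no dose for the combination. Each group comes from 3 separate mice, so that the spread between untreated arrays includes the spread between mice. Whether arrays with the same replicate number in different groups share a mouse, a culture or a day of processing was not stated, and these cannot be told apart here.

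A macrophage engulfs microbes and dying cells, degrades them in its lysosomes and reports what it finds through pattern recognition receptors such as the Toll-like receptors (TLR). Macrophages grown from marrow depend on M-CSF, which acts through the receptor Csf1r, and carry the lysozyme Lyz2 and the lipoprotein Apoe as products of their lineage. Before a stimulus they hold the receptors and signaling proteins of the inflammatory response, while most of its cytokines are made only afterwards.

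Each array gives a signal for 25697 probes and, for each probe, a detection p-value that compares it with the negative control probes. Values below are log2 signals after quantile normalization of all 12 arrays. The brightness of a probe depends on its sequence as well as on the amount of mRNA, so tests compared the signals of a gene between arrays, and an order of genes by brightness is an order of probe signals and not of mRNA. The mean signal before normalization was 309, 218 and 251 on untreated replicates 1, 2 and 3, and between 174 and 339 on the treated arrays. Replicate 2 was the dimmest array in each of the 4 groups. LPS replicate 1 stood apart from its group, as its signals correlated with those of LPS replicates 2 and 3 at 0.968 on average, and the main counts of tests that use it are also given without it. Single probes lay far from replicates 2 and 3 there. A dimmer probe of Eef2 measured 5.52 against 8.64 and 9.24, and a probe of Actb 12.07 against 5.41 and 5.84. On LPS plus hBD3 replicate 1 this Eef2 probe was also low (7.26 against 9.05 and 9.18), while this Actb probe was not apart (5.59 against 5.69 and 5.69). With 3 arrays in a group, their number limits the precision of every value below.

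A probe was called detected at a detection p under 0.01. Untreated replicates 1, 2 and 3 detected 9923, 9427 and 9709 probes. On all 3 arrays 9032 probes were detected (35.1% of the probes), on 1 or 2 of them 1350, and on none 15315. These counts lay close together on the 3 arrays, and the probes that passed on only some of them were 613 on 2 arrays and 737 on 1. Of 16593 genes with a named probe, 6453 had a probe detected on all 3 arrays, and 6448 (38.9%) passed by their brightest probe, which represents the gene from here on. The dimmest detected probe of an array lay at a log2 signal of 5.89, 5.98 or 5.93. The same rule gave 6338 genes with hBD3, 6143 with LPS and 6243 with LPS plus hBD3, of which 98.6%, 98.2% and 99% were also detected in untreated BMDM.

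Not being detected did not mean that a gene was silent. Several genes that every cell uses had probes at background: the elongation factor Eef1a1 measured 5.39, 5.49 and 5.45 on untreated replicates 1 to 3, the glycolytic enzyme Pgk1 5.65, 5.58 and 5.47 and the cytoplasmic actin Actg1 5.60, 5.57 and 5.58. The ferritin light chain Ftl1 measured 5.56, 5.40 and 5.56, while the heavy chain Fth1, with which it forms the iron store of the cell, was among the brightest genes. A probe at background therefore says only that this probe gave no signal, and that limit holds for each gene listed below as not detected.

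The 20 genes with the highest mean signal included 8 ribosomal protein genes, and the 100 brightest included 24, where 72 of all 16593 genes encode such proteins by their symbol. Together the 20 took 5.51% to 6.8% of the summed signal of an untreated array. Rplp1, a stalk protein of the ribosome, measured 14.34, 14.28 and 14.34 on untreated replicates 1 to 3. Itm2b, a membrane protein of the endosomal and secretory route, measured 14.28, 14.22 and 14.28. Quantile normalization gives the probes of the top ranks nearly the same values on every array, so the closeness of these values says little about the replicates.

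Lyz2, the lysozyme that cleaves bacterial cell walls, was the third brightest gene with 14.26, 14.34 and 14.17. Lyz1, its near-identical neighbour on the same chromosome, measured 14.05, 14.14 and 14.11, and because the probes of the 2 genes may bind both transcripts their signals cannot be fully told apart. Also among the 20 were Cstb (mean 14.17 ± 0.06, SD, n = 3) and Cst3 (13.73 ± 0.09), which inhibit cathepsins, Psap (14.10 ± 0.09), the precursor of the saposins that activate lysosomal lipid hydrolysis, and Laptm5 (13.93 ± 0.13), a lysosomal membrane protein of blood cells. Fth1 measured 14.14, 14.26 and 14.26, the glycoprotein Gpnmb 13.54, 13.62 and 13.85, and the chaperone Hspa8 13.88, 13.72 and 13.88. The remaining members of the 20 were Rpl41, Rps20, Rps12, Rpl38, Rpl37, Rpl23, Rpl9, the ubiquitin pseudogene Ubb-ps and Actb. The 20th, Rpl9, had a mean of 13.61 and the gene just outside, Akr1a1, an aldehyde reductase, had 13.56. When all probes of a gene were averaged, only 11 of the 20 remained. Other probes exist for 11 of the 20, and 16 of these 23 probes were detected on all 3 arrays.

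**Figure D1:**
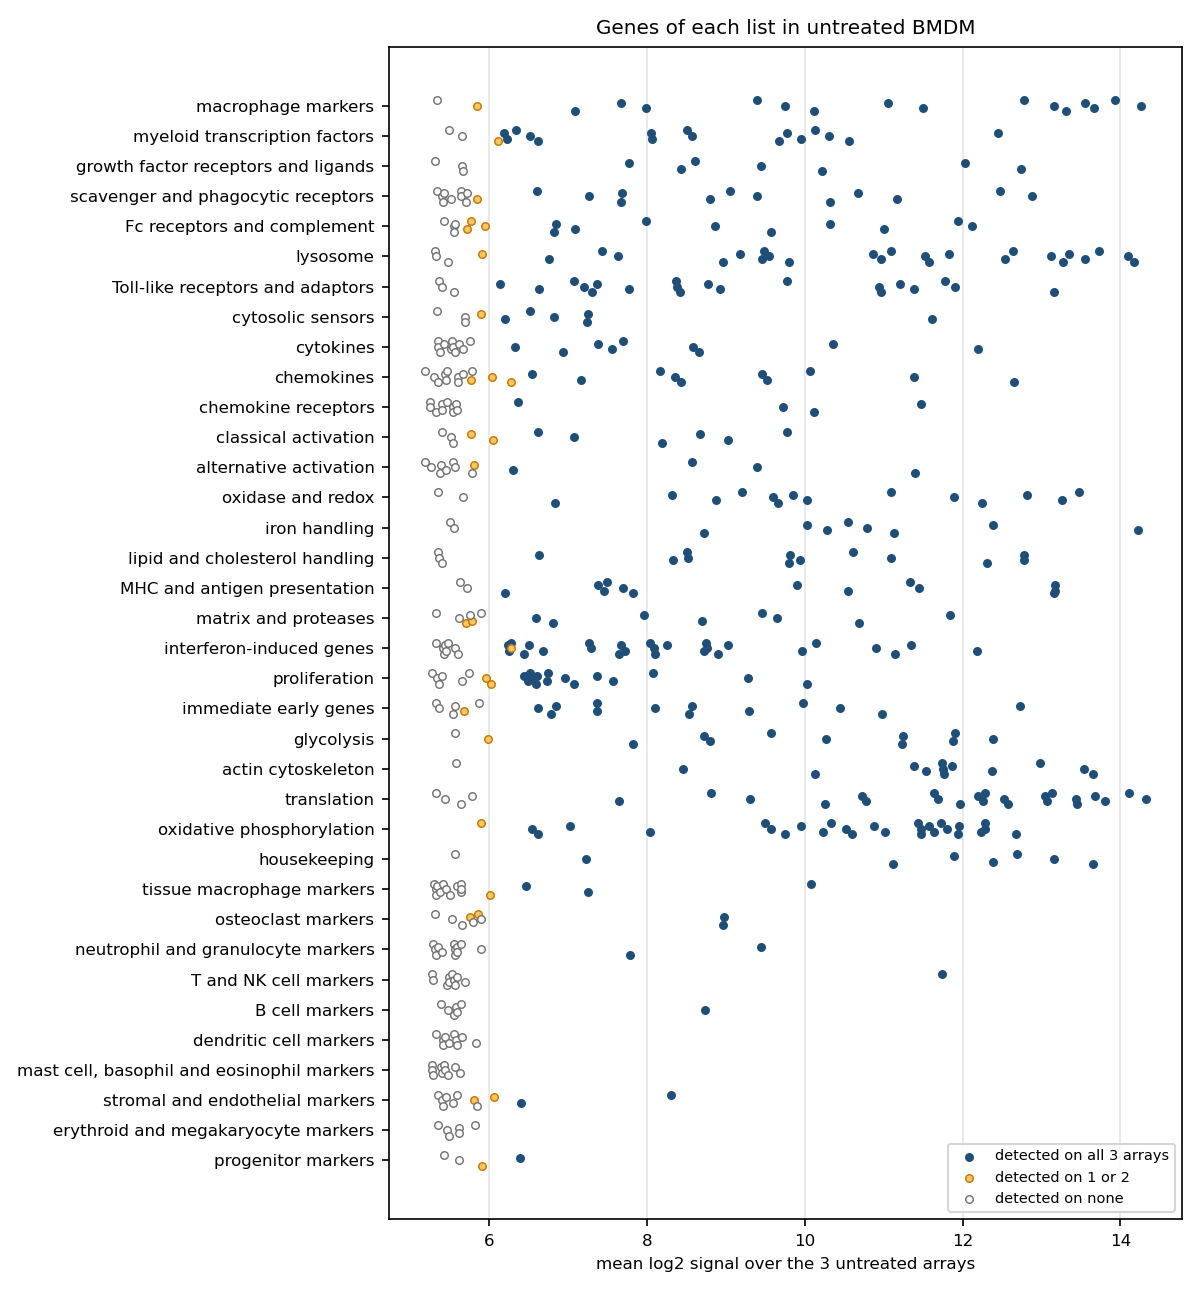
Mean log2 signal over the 3 untreated arrays (x axis) of every measured gene, by list (y axis), with filled blue points for genes detected on all 3 arrays, orange for 1 or 2 and open for none. Of the dendritic cell, mast cell and erythroid lists no gene was detected, while 15 of 17 macrophage markers were.

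The labelled cell type was carried by its markers. Of 20 macrophage markers, 17 were measured, and 15 were detected on all 3 arrays, 1 on some (Ptprc, the leukocyte antigen CD45, with 6.17, 5.67 and 5.72) and 1 on none (the scavenger receptor Msr1). Among all 16593 genes the share detected was 38.9%. Csf1r, Cd68 and Mpeg1 were not analysed here. The galectin Lgals3 measured 13.37, 13.58 and 13.71. Apoe, which carries cholesterol out of the cell, measured 12.29, 12.78 and 13.25, and was thus lowest on replicate 1. Adgre1, which encodes the macrophage antigen F4/80, measured 10.96, 11.20 and 11.01, and the signaling adaptor Tyrobp 11.60, 11.68 and 11.22. Adgre1 gave close values on the 3 arrays, and Tyrobp was lowest on replicate 3.

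Transcription factors that define the myeloid lineage were present. Of 20 listed, 19 were measured and 16 detected. Spi1, which encodes PU.1, the master regulator of the lineage, measured 9.88, 9.34 and 9.82 on untreated replicates 1 to 3, and Cebpb, a factor of macrophage activation, 12.52, 12.26 and 12.58. Bach1, a repressor of heme and iron genes, had a mean of 10.56 ± 0.15, and Zeb2, a repressor that shapes macrophage identity, of 10.30 ± 0.12. Pparg, a lipid sensing nuclear receptor, measured 9.22, 10.71 and 10.45 and the zinc finger factor Egr2 7.56, 9.14 and 9.04. These 2 were lowest on replicate 1 by more than 1 log2 unit, and the other 4 named here were not.

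Of 12 growth factor receptors and ligands, 10 were measured and 7 detected. The TGF-β receptors Tgfbr1 (12.75 ± 0.09) and Tgfbr2 (12.03 ± 0.17) were detected, as were Csf2ra (10.22 ± 0.35), a chain of the GM-CSF receptor, and Csf3r (9.44 ± 0.05), the G-CSF receptor. All 7 detected genes encode receptors, and the ligands Csf1 and Il34 and the receptor Flt3 were not detected on any array.

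Receptors for uptake were detected in part. Of 22 scavenger and phagocytic receptors, all measured, 12 were detected (54.5%, against 38.9% of all genes) and 9 gave no detected signal on any array. Trem2, a receptor for lipids and dying cells, measured 12.88, 12.86 and 12.88 on untreated replicates 1 to 3, and Mfge8, a bridge to dying cells, 12.33, 12.20 and 12.89. Axl, a receptor kinase for the bridging molecule Gas6, measured 12.18, 10.82 and 10.50, and Clec7a, the β-glucan receptor Dectin-1, 11.39, 10.40 and 10.22. Trem2 varied least of these, and Axl and Clec7a lay highest on replicate 1. The scavenger receptors Marco, Cd36, Cd163 and Msr1 and the phosphatidylserine receptor Timd4 were not detected.

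Of 20 Fc receptor and complement genes, 17 were measured and 10 detected on all 3 arrays. Fcgr3, an activating receptor for IgG, had a mean of 12.12 ± 0.15, and Fcgr4, another, of 10.32 ± 0.14. The C1q chains, which start the classical complement pathway, measured 8.50, 8.88 and 9.22 for C1qa, 10.53, 11.30 and 11.18 for C1qb and 11.70, 11.98 and 12.13 for C1qc. Each of the 3 chains was lowest on replicate 1. Fcer1g, the signaling chain shared by the activating Fc receptors, was not detected on any array although Fcgr1, Fcgr3 and Fcgr4, which need it, were.

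Of 33 listed lysosomal genes, 28 were measured and 24 detected, with a median SD of 0.16 between the arrays, against 0.17 over all 6448 detected genes. Ctsb, a cathepsin, measured 13.50, 13.50 and 13.66, the growth factor precursor Grn 13.29, 13.18 and 13.56 and the membrane protein Lamp1 13.13, 13.07 and 13.15. The widest spread of the list was that of the aspartic protease Ctse with 10.25, 9.43 and 8.97. Ctsg and Ctsw, cathepsins of granulocytes and of cytotoxic lymphocytes, were not detected.

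The receptors for microbial products were detected in untreated BMDM. Of 26 genes for TLR, their co-receptors and adaptors, 23 were measured and 20 detected. Cd14, which hands LPS to its receptor, measured 13.42, 12.96 and 13.10 on untreated replicates 1 to 3. Tlr4, the LPS receptor, measured 9.28, 8.47 and 8.59 and its co-receptor Ly96 (MD-2) 8.72, 8.11 and 8.30. Each of these was highest on replicate 1. The adaptors were detected too, with means of 11.21 ± 0.07 for Myd88, 7.78 ± 0.15 for Tirap, 7.20 ± 0.29 for Ticam1 (TRIF) and 7.37 ± 0.37 for Ticam2 (TRAM). Tlr2, the receptor for lipoproteins, measured 12.66, 11.66 and 11.41, Unc93b1, which escorts nucleic acid sensing TLR to the endosome, 11.76, 11.67 and 11.92 and Tlr13, a sensor of bacterial RNA, 11.53, 11.36 and 11.26. Tlr3, Tlr11 and Tlr12 were not detected. Of 12 cytosolic sensor genes, 10 were measured and 6 detected, among them the inflammatory protease Casp1 with 11.62 ± 0.32, the adaptor Mavs with 7.25 ± 0.26, the DNA sensor Aim2 with 7.24 ± 0.19 and the peptidoglycan sensor Nod1 with 6.82 ± 0.06.

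Of 21 cytokine genes, 20 were measured, 9 were detected and 11 were not. The share of 45% is close to that of all genes (38.9%). The growth factor Igf1 measured 12.22, 12.29 and 12.06 on untreated replicates 1 to 3, Tgfb1 10.46, 10.04 and 10.59 and Il15, a growth factor of lymphocytes, 8.91, 8.64 and 8.43. Tnf, the central inflammatory cytokine, was already detected, at 8.03, 9.23 and 8.48. Its highest value was on replicate 2. Il6, Il10, Il12a, Il23a, Ifnb1, Csf2 and Il1a were not detected on any untreated array.

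Of 23 chemokine genes, all measured, 10 were detected on all 3 arrays (43.5%). Ccl9, which attracts myeloid cells, measured 13.18, 12.65 and 12.14 and Cxcl16, a membrane-bound chemokine, 11.70, 11.28 and 11.17. Ccl3 and Ccl4, which attract monocytes and lymphocytes, had means of 9.52 ± 0.55 and 10.07 ± 0.44. Ccl2, Ccl7, Ccl17 and Ccl22 were not detected. Of the 14 measured chemokine receptors 4 were detected, namely Cxcr4 (11.48 ± 0.20), Cx3cr1, Ccrl2 (9.72 ± 0.43) and Cxcr3 (6.37 ± 0.06), and Ccr2, the receptor of inflammatory monocytes, was not.

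Of 11 measured genes of classical activation, 6 were detected (54.5%, against 38.9% of all genes), among them Irf5 (9.78 ± 0.20), an inflammatory transcription factor, the GTPase Gbp2, the co-stimulator Cd86 and the formyl peptide receptor Fpr2. Nos2, Ptgs2 and Il6, which LPS-activated macrophages are known for, were not detected. Of 13 measured genes of alternative activation 4 were detected (30.8%), the transglutaminase Tgm2 (11.40 ± 0.86), the mannose receptor Mrc1 (9.40, 9.02 and 9.77), Egr2 and the signaling inhibitor Socs2 (6.30 ± 0.07). Arg1, Retnla and Chil3, which mark alternative activation, were not.

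Genes of the oxidative burst, of iron and of lipid handling were mostly detected: 14 of 16 measured, 8 of 10 and 12 of 15. Cyba, a membrane subunit of the NADPH oxidase, had a mean of 13.26 ± 0.12 and the peroxidases Gpx1 and Prdx1 of 13.48 ± 0.07 and 12.82 ± 0.23. Its partner subunit Cybb was not detected. Slc11a1, the transporter that withdraws metal from phagosomes, measured 12.23, 12.35 and 12.56 and the iron exporter Slc40a1 11.18, 10.74 and 10.44. Lpl, which releases fatty acids from lipoproteins, had a mean of 12.78 ± 0.31 and the phospholipid transfer protein Pltp of 12.31 ± 0.25.

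Of 15 genes of antigen presentation, all measured, 13 were detected. H2-Ab1, a class II chain, measured 13.17, 13.29 and 13.05 on untreated replicates 1 to 3, the invariant chain Cd74 13.20, 13.27 and 13.04 and the class I light chain B2m 13.07, 13.36 and 13.07. All 3 varied little. H2-Aa, the partner of H2-Ab1, was not detected. Of 14 measured matrix and protease genes 8 were detected, with Timp2, an inhibitor of matrix proteases, at 11.84 ± 0.12, Plau, the activator urokinase, at 10.69 ± 0.42, and the elastase Mmp12 at 9.65 ± 0.27.

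Metabolic and structural genes were detected nearly throughout. Of 28 measured genes of oxidative phosphorylation 27 were detected, of 27 measured genes of translation 23, of 13 measured genes of the actin cytoskeleton 12 and of 12 measured glycolytic genes 10. Atp5b, of the ATP synthase, had a mean of 12.68 ± 0.08 and Ldha, lactate dehydrogenase, of 11.90 ± 0.19. Actb, β-actin, had 13.66 ± 0.15 and Tmsb4x, which binds actin monomers, 13.54 ± 0.13. Gapdh measured 12.64, 12.22 and 12.31.

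Cell cycle genes were detected in part. Of 23 measured proliferation genes 15 were detected on all 3 arrays, among them Cenpa, a centromeric histone, with 10.19, 10.23 and 9.66, and the replication helicase subunits Mcm4, Mcm5 and Mcm6, with means of 9.29 ± 0.06, 7.57 ± 0.32 and 8.07 ± 0.28. Of genes that act in mitosis, the kinases Plk1 (6.60 ± 0.16), Cdk1 (6.73 ± 0.44) and Aurka (6.50 ± 0.21), the activator Cdc20 (7.08 ± 0.26) and Birc5 (7.37 ± 0.25) were detected, and Ccna2, Ccnb2 and Bub1 were not. In these bulk arrays fewer dividing cells and less RNA per cell cannot be told apart, and the same holds for every other gene here.

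Markers of other cells were few. None of the 10 measured dendritic cell markers, of the 10 markers of mast cells, basophils and eosinophils and of the 6 of red cells and megakaryocytes was detected on any untreated array. Each of the T and NK cell and B cell lists had 1 detected gene. They were Il7r, the receptor of interleukin-7, with 11.49, 11.87 and 11.84, and the signaling adaptor Blnk, with 8.63, 8.77 and 8.81, while the defining Cd3d, Cd3e, Cd79a and Ms4a1 were at background. Of 14 measured neutrophil and granulocyte markers, Csf3r and S100a8 (8.07, 7.98 and 7.32) were detected, and S100a9, the partner of S100a8, Mpo and Elane were not. Of 16 measured markers of tissue macrophages 3 were detected, the folate receptor Folr2 (9.89, 10.21 and 10.12), the adhesion molecule Vcam1 (7.48, 7.13 and 7.16) and the red pulp factor Spic (6.62, 6.74 and 6.03). Of the 9 osteoclast markers Nfatc1 (8.97 ± 0.07) and Ctsk (8.97 ± 0.13) were detected, and of the 4 progenitor markers Meis1 (6.39 ± 0.14).

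The 2 stromal markers detected on all 3 untreated arrays were lowest on replicate 1. Of 11 measured, Acta2, the smooth muscle actin, was detected with 7.70, 8.76 and 8.48 on untreated replicates 1 to 3 and the matrix proteoglycan Dcn with 5.97, 6.63 and 6.64. Col1a1, a collagen chain, was detected on replicates 2 and 3 only, with 5.68, 6.27 and 6.25. The summed normalized signal of the list was 693, 983 and 923 on the 3 arrays and 686 to 1136 on the treated arrays. Acta2, the brightest member, weighs most in this sum. The endothelial markers Cdh5 and Pecam1 and the stromal Col3a1, Col1a2 and Pdgfrb were at background, some slightly higher and some slightly lower on replicate 1.

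The sex-linked genes gave a further check of the arrays. The Y-linked Eif2s3y was detected on all 3 untreated arrays with 7.39, 7.56 and 6.78, Kdm5d on 2 with 6.10, 6.07 and 5.78 and Uty on 1 with 5.90, 5.84 and 5.83. Xist, transcribed from the inactive X chromosome, was detected on none (5.79, 5.79 and 5.77).

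The 3 untreated arrays did not differ from each other equally. Over the 9032 detected probes, 159 differed by more than 2-fold between replicates 1 and 2, 218 between replicates 1 and 3 and 10 between replicates 2 and 3. The median SD of the 6448 detected genes was 0.17. Of the 197 genes whose values spanned more than 1 log2 unit, replicate 1 was the outlying array for 172 (87.3%), replicate 2 for 6 and replicate 3 for 19. On replicate 1, 105 of the 172 were higher and 67 lower. With replicate 1 left out, the median SD over the remaining pair was 0.105.

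The 20 genes with the highest SD over the untreated arrays are described with no test here, since their spread chose them. Cytip, which regulates integrin adhesion through cytohesin, measured 11.38, 9.10 and 8.63 on untreated replicates 1 to 3 (SD 1.47). Cx3cr1, the fractalkine receptor of monocytes and macrophages, measured 11.74, 9.42 and 9.18. Il1b, the fever cytokine, measured 9.07, 7.14 and 6.45, and each of these 3 was higher on replicate 1 than on either other array. The difference of replicate 1 from the mean of replicates 2 and 3 was 2.51 for Cytip, 2.44 for Cx3cr1 and 2.28 for Il1b, in log2 units.

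Lsp1, an actin-binding protein of leukocytes, measured 11.76, 10.11 and 9.33 and Clec4e, the mycobacterial glycolipid receptor Mincle, 10.10, 8.37 and 7.76. The integrin chain Itgb7 measured 9.27, 7.51 and 7.32, the fatty acid receptor Gpr84 9.43, 7.90 and 7.56 and the langerin gene Cd207 9.22, 7.95 and 7.30. The others that were highest on replicate 1 were Marcksl1, an actin regulator (10.04, 8.30 and 8.36), the ubiquitin ligase Neurl3 (9.07, 7.43 and 7.38), St3gal5, which makes the ganglioside GM3 (9.79, 8.54 and 7.91), the kinase Stk17b (8.52, 7.02 and 6.75), and Ifit2, Ifit3 and Rsad2. In all, 15 of the 20 were highest on replicate 1 and 5 lowest.

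The genes lowest on replicate 1 were Erdr1, which lies in a region shared by the X and Y chromosomes (6.88, 9.28 and 9.03), Fam214a (7.77, 9.71 and 9.57), the stress gene Gadd45b (7.27, 9.22 and 8.94), the orphan receptor Gpr176 (7.22, 9.02 and 8.86) and the histone methyltransferase Dot1l (6.64, 8.21 and 8.44). For all 20 genes the values of replicates 2 and 3 lay on the same side of replicate 1. They were not always close, as for Lsp1 (10.11 and 9.33) and Il1b (7.14 and 6.45). The last of the 20, Stk17b, had an SD of 0.95, and the first outside, the adhesion molecule Nectin3, had 0.94. Without replicate 1, none of the 20 was among the 20 most variable genes. Of the 20, 8 had other probes, 12 in all, of which 7 were detected on all 3 arrays. All 7 placed replicate 1 on the same side, in the same untreated arrays that chose the genes.

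**Figure D2:**
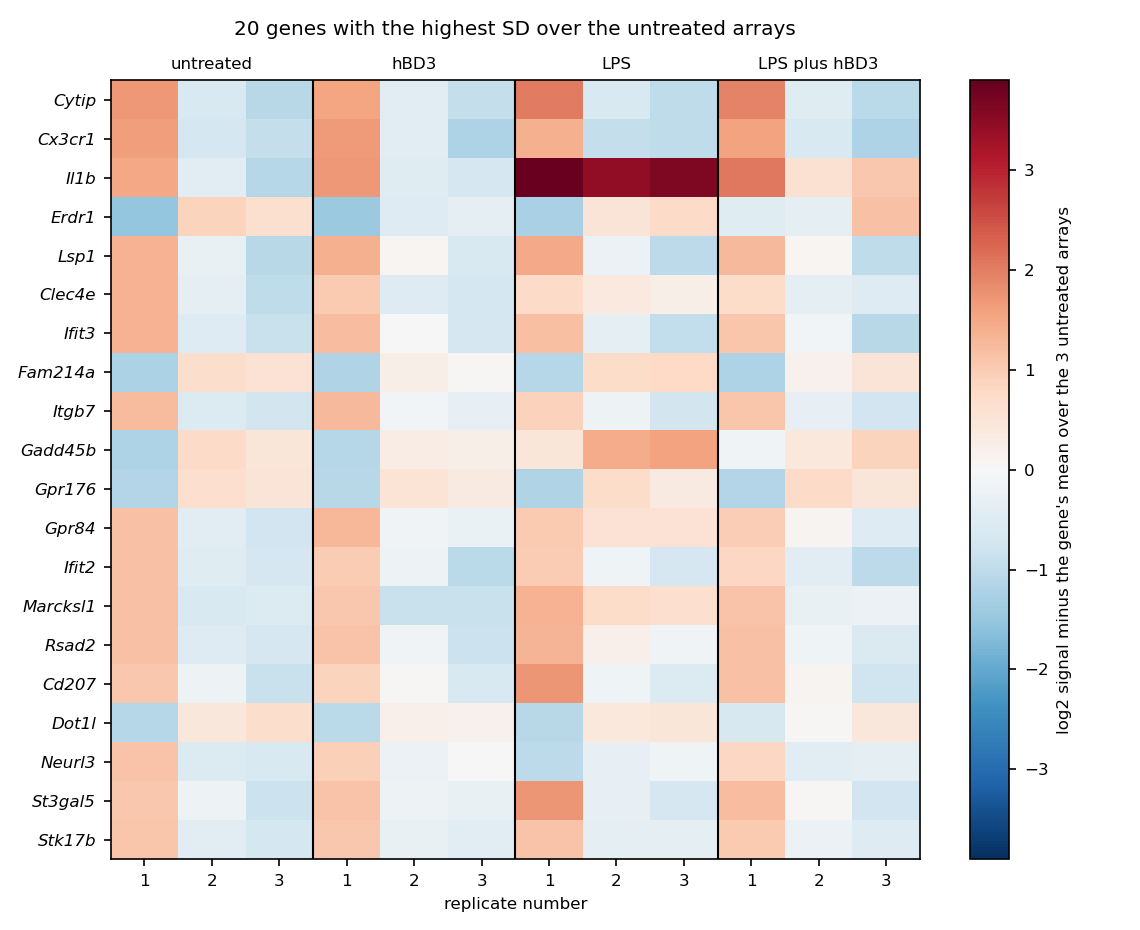
Log2 signal of the 20 most variable genes (rows) on each of the 12 arrays (columns, by group and replicate number), less the gene's mean over the 3 untreated arrays, with red for higher and blue for lower. Replicate 1 stands apart from replicates 2 and 3 in the untreated group, and differences of the same sign recur in the treated groups except for Neurl3 with LPS, where replicate 1 lay 0.77 lower.

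Because these genes were chosen by their spread in untreated BMDM, they were tested only in the 9 treated arrays, which had no part in the choice. Same-numbered arrays may come from the same mouse or culture, so the treated arrays may not be an independent set. A small p then says that a difference recurred across the treatments, and not that it would recur in other mice. limma's F-test asked whether the replicate number changed a probe's signal once the treatment was accounted for. Over all probes 2284 of 25697 passed (8.89%), 1238 of them with replicate 1 highest and 936 with replicate 1 lowest (4.82% and 3.64%). Among the genes detected in untreated BMDM 22.2% passed, 12.8% with replicate 1 highest and 8.27% with it lowest. Of the 20 most variable genes, 18 passed, all 18 with replicate 1 on the same side as in untreated BMDM. Il1b (adjusted p = 0.0631) and Neurl3 (adjusted p = 0.632) did not pass, and both passed without LPS replicate 1, where 2853 probes were called. Other probes of Clec4e, Gpr84, Ifit2, Cd207 and St3gal5 also passed in the 9 treated arrays. The other probes of Marcksl1 (adjusted p = 0.699, 0.875 and 0.775 by limma's F-test) and Ifit3 (0.878 and 0.582) did not, nor did those of Neurl3.

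The count over all probes depended on single arrays, with 1402 without LPS replicate 3 and 875, 1332 and 1300 without LPS plus hBD3 replicates 1, 2 and 3. Under median scaling 4901 probes passed, 2687 with replicate 1 highest and 759 with it lowest. Of the 20 genes, 14 to 20 passed when any 1 treated array was left out, with 14 without LPS plus hBD3 replicate 1. Clec4e, Erdr1, Gpr84 and Marcksl1 did not pass with background correction, and Erdr1 not with a trended variance either. With both LPS-treated replicate 1 arrays left out, a setting chosen after the data were seen, all 20 passed among 1911 probes called.

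Cx3cr1 had 11.78, 11.50 and 11.67 on replicate 1 of the hBD3, LPS and LPS plus hBD3 groups, and 8.91 to 9.71 on the 6 arrays of replicates 2 and 3 (adjusted p = 6.37e-05 by limma's F-test). Cytip had 11.23, 11.74 and 11.63 on the 3 replicate 1 arrays against 8.64 to 9.26 (adjusted p = 5.73e-05). Replicate 1 did not overlap replicates 2 and 3 in the treated arrays for either gene, nor for 12.3% of all probes and 26% of the detected genes. Without LPS replicate 1 both genes passed as well. The 10 genes with the smallest p in this test also included Plk2, a stress-induced kinase with 7.59, 9.27 and 8.79 in untreated BMDM, Smpdl3b, a lipid phosphodiesterase that restrains TLR signaling, with 9.31, 8.16 and 7.61, Enpp4, a nucleotide phosphodiesterase, with 8.19, 6.69 and 6.46, Fcgr1, the high affinity receptor for IgG, with 8.70, 7.88 and 7.39, and Tmem158, with 5.84, 7.25 and 7.14. All 5 placed untreated replicate 1 on the side it had in the treated groups. Gpr176, Egr2 and Stk17b completed the 10.

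**Figure D3:**
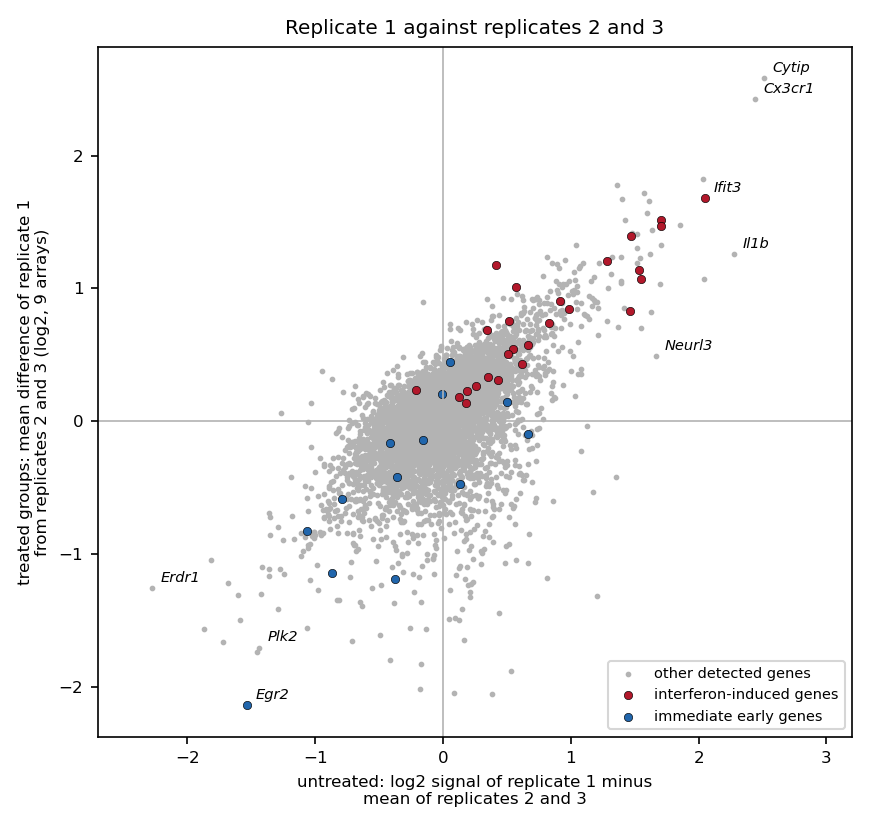
For each of 6448 genes detected on the 3 untreated arrays (points), the log2 signal of untreated replicate 1 minus the mean of untreated replicates 2 and 3 (x axis) and the same difference averaged over the 3 treated groups (y axis). Interferon-induced genes (red) lie mostly at the upper right, as do Cx3cr1 and Cytip, and among the immediate early genes (blue) Egr2 lies at the lower left.

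Across the 6448 genes, the difference of replicate 1 from replicates 2 and 3 in untreated BMDM correlated with that in the hBD3 group (Pearson's r = 0.73), in the LPS group (0.33) and in the LPS plus hBD3 group (0.64). Genes are not independent replicates, and each value sets 3 arrays against 3. Of the 197 genes that spanned more than 1 log2 unit, 163 passed the test in the treated arrays (82.7%, against 22.2% of all detected genes), and for 171 the difference had the same sign in all 3 treated groups as in untreated BMDM, as it had for 2806 of all 6448 detected genes (43.5%). In the 6251 detected genes with a smaller span, 20.3% passed.

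Most interferon-induced genes were highest on replicate 1. Of 38 listed, 35 were measured and 26 detected on all 3 untreated arrays. Of these 26, 24 were highest on replicate 1 and 1 was lowest (Bst2, 6.55, 6.73 and 6.79), where 34.5% of all detected genes were highest on replicate 1 and 43% lowest. Their median difference of replicate 1 from replicates 2 and 3 was 0.59, against -0.03 over all 6448 detected genes. In the treated arrays 21 of the 35 passed the test of the replicate number (60%, against 9.61% of all genes and 22.2% of the detected ones), 19 with replicate 1 highest and 0 with it lowest. Without LPS replicate 1, 23 of the 35 passed (65.7%, against 11.7% and 27.3%).

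Ifit3 measured 10.26, 8.40 and 8.02 on untreated replicates 1 to 3. Its neighbour Ifit2 measured 9.24, 7.61 and 7.44 and Rsad2, which encodes the antiviral enzyme viperin, 9.86, 8.23 and 8.08. Irf7, the factor that amplifies the interferon response, measured 8.67, 7.29 and 6.99, and Isg15, a ubiquitin-like modifier, 7.90, 7.28 and 6.69. Others differed less between the arrays. Lgals3bp had 12.59, 11.86 and 12.09, Irgm1 11.46, 11.48 and 11.10, Samd9l 11.48, 11.21 and 10.73 and Ifi27l2a 11.20, 11.08 and 10.45. Ifit1, Mx1 and Iigp1 were not detected on any untreated array. The summed normalized signal of the list was 26493 on untreated replicate 1 and 17390 and 15210 on replicates 2 and 3, and in the treated groups replicate 1 lay between 24257 and 25772 and replicates 2 and 3 between 13910 and 19122.

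Promoters of the variable genes are shown because the interferon response acts through a short promoter element, the interferon-stimulated response element (ISRE). The windows are RefSeq's, of 300 bases from 250 before to 50 after the start of a transcript of the gene, in build GRCm38.p6, the first listed where a gene has several, and the motif searched was GAAANNGAAA on both strands. It was found in 1131 of 32851 windows (3.44%). Windows were given for 18 of the 20 most variable genes, and 3 of them held the motif. The sequences are written 5′ to 3′ on the gene's strand, with the matches in capitals. Where the capitals begin with TTTC, the match is on the opposite strand.
Ifit3, chr19:34583279-34583578 (plus strand): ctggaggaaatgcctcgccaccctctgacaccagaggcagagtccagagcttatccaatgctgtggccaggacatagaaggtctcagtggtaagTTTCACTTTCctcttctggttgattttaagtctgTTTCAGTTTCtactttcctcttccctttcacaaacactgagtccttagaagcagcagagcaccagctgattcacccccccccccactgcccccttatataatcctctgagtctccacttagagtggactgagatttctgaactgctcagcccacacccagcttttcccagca
Rsad2, chr12:26456403-26456702 (minus strand): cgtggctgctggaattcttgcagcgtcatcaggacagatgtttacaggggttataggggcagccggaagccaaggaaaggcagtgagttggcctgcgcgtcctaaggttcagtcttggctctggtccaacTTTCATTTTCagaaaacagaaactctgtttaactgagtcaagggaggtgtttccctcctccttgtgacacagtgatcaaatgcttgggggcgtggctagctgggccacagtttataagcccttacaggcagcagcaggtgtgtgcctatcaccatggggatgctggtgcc
Cytip, chr2:58160073-58160372 (minus strand): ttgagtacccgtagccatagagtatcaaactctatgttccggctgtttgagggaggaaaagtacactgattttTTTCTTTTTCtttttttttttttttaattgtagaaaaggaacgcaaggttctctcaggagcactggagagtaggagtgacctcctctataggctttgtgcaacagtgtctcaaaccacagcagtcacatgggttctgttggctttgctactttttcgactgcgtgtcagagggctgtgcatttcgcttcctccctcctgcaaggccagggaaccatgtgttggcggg
In Ifit3 the motif stands in 2 places and in Rsad2 in 1. In Cytip it lies in a run of pyrimidines. The start used for Cytip lies 35427 bases inside the annotated gene and that for Ifit3 410 bases inside it, while that for Rsad2 is the annotated start of the gene. Of the 35 measured interferon-induced genes 23 had a window, and 15 of these held the motif (65.2%). It was in 8 of 13 windows of genes that passed the test of the replicate number and in 7 of 10 windows of those that did not. A match is a description of the letters and not a site that was shown to be used.

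Other lists are given against the same shares of the 6448 detected genes, of which 34.5% were highest on untreated replicate 1, 43% were lowest on it and 22.2% passed the test of the replicate number. Of 20 detected TLR genes 15 were highest on untreated replicate 1 and 2 were lowest, with Tlr8, an endosomal RNA receptor, at 8.21, 6.58 and 7.13, and in the treated arrays 7 of 23 measured genes passed (30.4%), 6 with replicate 1 highest. Of 15 detected proliferation genes 11 were highest on replicate 1 and 2 lowest, and 8 of 23 passed in the treated arrays (34.8%), all 8 with replicate 1 highest. They included Tk1, thymidine kinase (6.99, 6.27 and 6.35), and Mcm5 (7.91, 7.29 and 7.50). Of 13 detected genes of antigen presentation 9 were highest on replicate 1 and 0 lowest, and 5 of 15 passed (33.3%), 3 with replicate 1 highest and 1 with it lowest. These shares of passing genes are over measured genes, of which 9.61% passed among all 16593, while the 22.2% is over detected genes only. Without LPS replicate 1 the shares were 43.5%, 43.5% and 40%, against 11.7% of all genes and 27.3% of the detected ones.

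Of the 6 detected genes of classical activation 5 were highest on replicate 1, with Gbp2 at 10.06, 8.74 and 8.29, Cd86 at 9.21, 8.98 and 7.82 and Fpr2 at 9.12, 7.90 and 7.57. For Cd86 replicates 1 and 2 lay close, and replicate 3 was the outlying array. In the treated arrays 5 of 11 passed (45.5%), all with replicate 1 highest. Without LPS replicate 1, 6 of 11 passed, 4 with replicate 1 highest and 1 with it lowest. In alternative activation the members went apart: Tgm2 was highest on replicate 1, by 1.48 log2 units over the mean of replicates 2 and 3, and Egr2 lowest. Vegfa, the vessel growth factor, measured 7.84, 6.55 and 6.40 and Mertk, a receptor for dying cells, 8.44, 7.43 and 7.16. Both passed in the treated arrays with replicate 1 highest (adjusted p = 0.00123 and 0.000529 by limma's F-test), and also without LPS replicate 1.

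Immediate early genes, which switch on within minutes of a stimulus, had an order that depended on the scaling. Of 13 detected, 8 were lowest on untreated replicate 1 and 4 highest, and under median scaling 4 were lowest and 6 highest. In the treated arrays 9 of 19 measured passed (47.4%), 6 of them with replicate 1 lowest and 2 with it highest, and 11 passed without LPS replicate 1. Atf3, a stress factor, measured 10.40, 11.24 and 11.29, the AP-1 subunit Junb 9.92, 10.69 and 10.73 and Zfp36, which destabilizes cytokine mRNA, 9.27, 10.50 and 10.16. The factor Klf6 measured 12.62, 12.82 and 12.74, Dusp1, a MAP kinase phosphatase, 9.74, 9.48 and 8.67 and the AP-1 subunit Jun 8.19, 8.12 and 8.01. Dusp1 and Jun were highest on replicate 1. Of the myeloid transcription factors 10 of 19 passed in the treated arrays (52.6%) and 13 without LPS replicate 1. Of the 10, 4 had replicate 1 highest and 6 lowest, among the latter Egr2, Pparg (adjusted p = 0.000309) and Cebpa (adjusted p = 0.016, 7.72, 8.09 and 8.34 in untreated BMDM). Of the 8 measured housekeeping genes 0 passed, but 3 passed under median scaling, and a second probe of Gapdh passed (adjusted p = 0.0321 by limma's F-test). Median scaling placed all detected genes 0.29 higher on replicate 1 (median), with 4445 of 6448 highest on it and 594 lowest, the interferon-induced genes at a median of 0.93 and the immediate early genes at -0.04. Relative to all detected genes, the interferon-induced genes lay above and the immediate early genes below under both scalings.

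**Figure D4:**
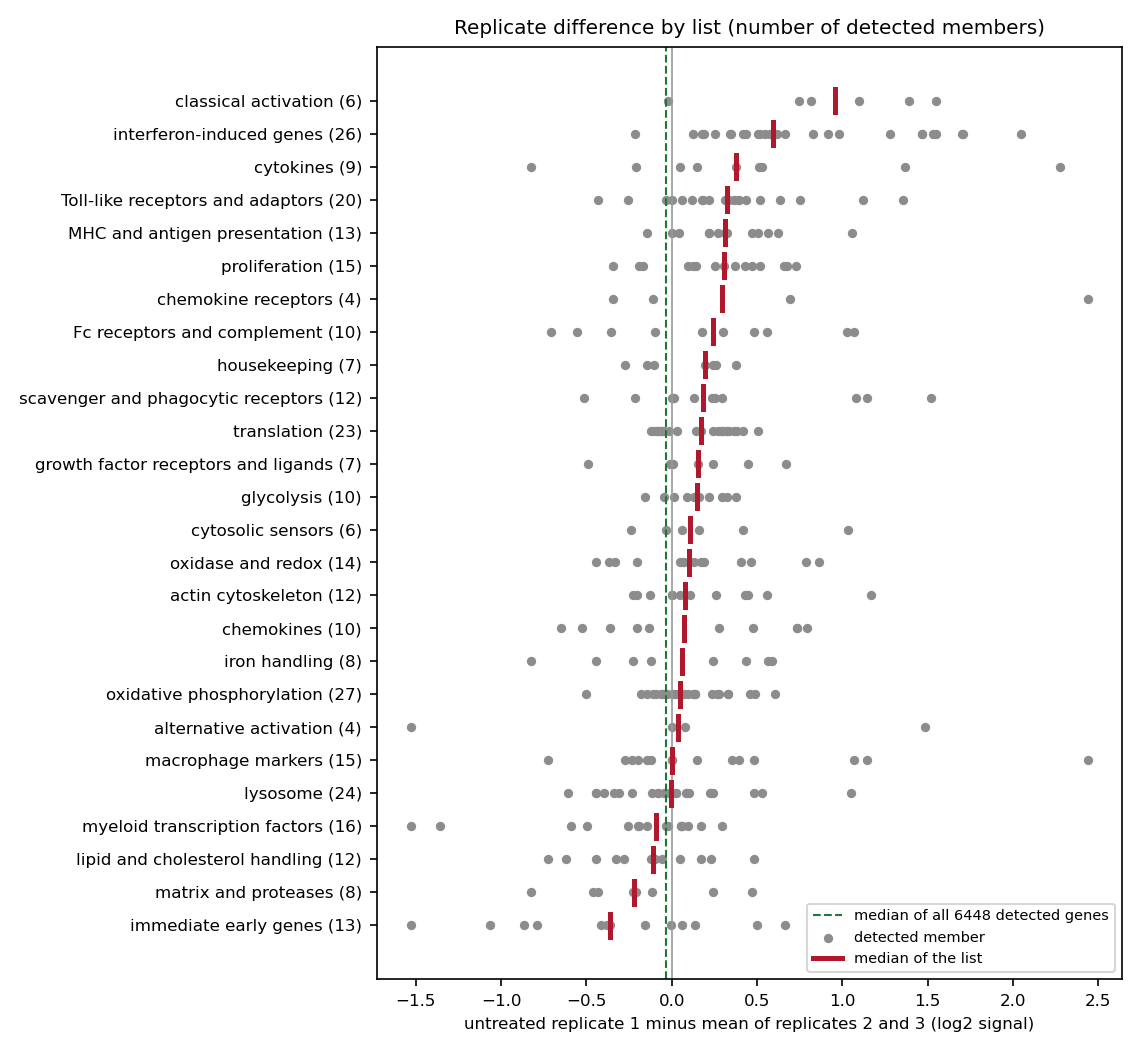
Log2 signal of untreated replicate 1 minus the mean of replicates 2 and 3 (x axis) for the detected members (gray points) of each list with 4 or more of them (y axis), with the median of the list (red bar) and of all 6448 detected genes (dashed line, -0.03). The medians run from 0.96 for classical activation and 0.59 for interferon-induced genes to -0.36 for immediate early genes.

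Other measures also differed between the arrays, and not all of them followed the replicate number. The detected stromal markers were lower on untreated replicate 1, as given above. In the treated groups the summed signal of that list was 686 to 763 on replicate 1 and 780 to 1136 on replicates 2 and 3. Of the 11 measured stromal markers, only Col1a1 passed the test of the replicate number (adjusted p = 0.044 by limma's F-test), and 2 passed without LPS replicate 1. Untreated replicate 1 detected the most probes of its group, whereas the replicate 1 arrays of the hBD3 and LPS groups detected the fewest of theirs. A dimmer probe of Actb measured 7.57, 9.92 and 10.99 on untreated replicates 1 to 3 and 7.53, 13.85 and 11.57 on replicate 1 with hBD3, LPS and LPS plus hBD3, while the brightest Actb probe stayed between 13.46 and 14.02 on all 12 arrays. The part of these measures in the differences between replicates was not tested.

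Replicates 2 and 3 also differed. In the treated arrays alone, 879 probes separated them by limma's test, a setting chosen after the data were seen, among them those of 9 of the 20 most variable genes. The 10 probes that differed by more than 2-fold between them in untreated BMDM belonged to 9 genes, and these are named because their values were seen. They were the dimmer Actb probe, 2 probes of Cd86, Cxcl1 (8.35, 8.67 and 7.47), Eef1a2, the probe of the small nuclear RNA Rnu6, Rgs1, and dimmer probes of Hspa8, Mfge8 and Msn. The brightest probe of Hspa8 measured 13.88, 13.72 and 13.88 while the dimmer one measured 11.19, 9.47 and 10.56.

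Set against the treated groups, the untreated level differed for few genes. limma called 27 probes higher with LPS than in untreated BMDM and 0 lower (0.105% and 0% of 25697 probes), 0 with hBD3 (0%) and 0 with LPS plus hBD3 (0%). Without LPS replicate 1 the LPS count was 44. Before adjustment, p was under 0.05 for 254 raised and 359 lowered probes with hBD3, and for 349 and 287 with LPS plus hBD3. With the replicate number as a block limma called 72 probes for LPS, 0 for hBD3 and 2 for LPS plus hBD3. The last were those of Egr1 (log FC 1.80, SE 0.17, limma's adjusted p = 0.0137) and Phlda1 (log FC 0.83, SE 0.08, limma's adjusted p = 0.0137).

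Most genes that LPS raised were already detected at rest. By their brightest probe 24 genes were called, and 21 of these were detected on all 3 untreated arrays (38.9% of all genes were) and the others, Cd69, Cdkn2b and Tnfsf9, on 1 or 2. All 24 were detected on all 3 LPS arrays, and of all genes so detected 98.2% were also detected on all 3 untreated arrays. Detection at rest was thus not particular to the genes that LPS raised. Cxcl1, a neutrophil attractant, measured 8.35, 8.67 and 7.47 in untreated BMDM and 12.70, 12.85 and 13.17 with LPS. The transcription factor Egr1 measured 6.60, 7.31 and 6.64 and 10.35, 11.84 and 11.40, and Tnf 8.03, 9.23 and 8.48 and 11.54, 13.05 and 13.51. Cxcl2, a further neutrophil attractant, measured 7.66, 7.40 and 6.45 and 10.33, 11.60 and 11.65, and the cytokine signaling inhibitor Socs3 6.90, 7.23 and 6.83 and 10.15, 11.16 and 10.89. None of these 5 overlapped between the groups (7.57% of all probes did not). This adds no support, since the 5 were chosen from these arrays as the calls with the largest change. Their log FC was 4.75, 4.34, 4.12, 4.03 and 3.74 with SE of 0.33, 0.47, 0.56, 0.40 and 0.26, and limma's adjusted p of 0.000108, 0.00269, 0.0165, 0.00149 and 0.000112. Leaving out 1 array cost Tnf its call in 4 of 12 fits, where untreated replicate 1, untreated replicate 3, LPS replicate 2 and LPS replicate 3 were dropped in turn (limma's adjusted p from 0.0839 to 0.124). When only the untreated and LPS arrays were fitted, Egr1, Tnf and Cxcl2 had a limma adjusted p of 0.058, 0.225 and 0.108. LPS plus hBD3 also left these 5 genes above the untreated level, though none was called there without the block. The log FC was 2.14 for Cxcl1, 1.80 for Egr1, 1.83 for Tnf, 1.63 for Cxcl2 and 1.25 for Socs3. Their SE were 0.33, 0.47, 0.56, 0.40 and 0.26.

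Il1b had 9.07, 7.14 and 6.45 in untreated BMDM and 11.42, 11.02 and 11.20 with LPS, and this difference (log FC 3.66, SE 0.72) did not reach the threshold in the fit without the block (limma's adjusted p = 0.201, and 0.384 without LPS replicate 1). Its untreated values spanned more than those with LPS.

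Genes detected in one group and in no array of the other lay near the detection limit. By the brightest probe, 7 genes were detected on all 3 untreated arrays and on none with hBD3, 5 and none with LPS, and 11 and none with LPS plus hBD3, and the reverse held for 1, 5 and 0. Tia1, an RNA-binding protein, measured 5.90, 6.19 and 6.21 in untreated BMDM and 5.86, 5.92 and 5.83 with hBD3. Maff, a small Maf factor, measured 5.78, 5.82 and 5.64 and 6.14, 6.34 and 6.09 with LPS, and Cish, a cytokine signaling inhibitor, 5.63, 5.73 and 5.62 and 6.09, 6.07 and 6.04. All of these values lay close to the limit, and none of these 3 passed limma's test without the block (adjusted p = 1, 0.201 and 0.594).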

How the data were processed

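RNA of 12 cultures was labelled with biotin and hybridised to Illumina MouseRef-8 arrays. The deposited signal intensities are, per the file headers, probe averages before normalization, with the scanner software's detection p-values, which the authors deposited beside them. A deposited value table of quantile normalized intensities served as an alternative. Here the intensities were quantile normalized, taken to log2 and fitted in limma 3.58.1 (R 4.3.3) with the 4 groups as terms, and p-values were adjusted over 25697 probes by Benjamini and Hochberg at 0.05. The replicate number was tested by limma's F-test in the 9 treated arrays with treatment as a term. A gene was represented by its brightest probe over all arrays. Of the probes, 23978 carried 1 gene symbol and 1719 none. Sequences came from RefSeq (GRCm38.p6).

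Genes were named by fixed rules: the 20 brightest and the 20 most variable genes, the 10 with the smallest p for the replicate number, the 5 LPS calls with the largest change, genes whose detection switched, and members of the lists. Members and lists were chosen with earlier results of these data known. The fits were tested on simulated data.

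Replicate numbers are shared by the groups. Deviations of untreated arrays from their group mean correlated with those of the same-numbered arrays at 0.38 to 0.62 for hBD3 and 0.18 to 0.51 for LPS plus hBD3, so the numbers were taken to pair these groups from the data, and a fit with the replicate number as a block was an alternative. Other alternatives were normexp background correction (neqc, offset 16), scaling to the median, normalizing after taking log2, a filter on detection, a trended and robust variance, array weights, the compared groups alone, and leaving out each array in turn.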

Additional observations from a re-analysis of the deposited data

How the results depend on the processing

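Single tested results kept their direction under the alternatives run. Counts by list did not: under median scaling the immediate early genes turned from 8 lowest and 4 highest on untreated replicate 1 to 4 and 6, the lipid genes from 8 and 3 to 2 and 7, and all detected genes from 2775 and 2222 to 594 and 4445. The count of 9032 detected probes was 9172 to 9350 with 1 untreated array left out, and that of detected genes 6539 to 6629, since fewer arrays had to pass. The median SD of the detected genes was 0.105 to 0.156 with 1 untreated array left out and 0.253 under median scaling. The count for the replicate number in the treated arrays was 875 to 2853 with 1 array left out and 4901 under median scaling, and over replicates 2 and 3 alone, chosen after the data were seen, it was 879. The count of probes raised by LPS (27) was 19 to 44 with 1 array left out, 44 with array weights and 6 with the compared groups alone, where fewer arrays set the variance. The counts for hBD3 (0 to 0) and LPS plus hBD3 (0 to 0) stayed at 0 with 1 array left out.

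With the replicate number as a block, 72 probes were called for LPS, 71 higher and 1 lower (the histone gene H2ac24), 2 for LPS plus hBD3 and 0 for hBD3, and the block cost none of the 5 named LPS genes its call. Il1b (limma's adjusted p = 0.00115) and Maff (0.0471) passed for LPS with the block. Deviations of the LPS arrays correlated with those of the same-numbered untreated arrays at 0.07 to 0.37, which does not settle whether the numbers pair them. All 3 untreated arrays and 2 of the 3 LPS arrays correlated best with their own number, a hint from the data and not the design. Of 416 adjusted p-values for the replicate number of single genes, 16 lost the call and 6 gained it, and of 105 for LPS 8 lost it. The cause was not tested. Signal over background limits what can be said of the 9344 genes not detected on any untreated array.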
